A study of Drosophila melanogaster with 6 samples.

Results

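The genes described are 10 Drosophila melanogaster genes for RNA-binding proteins that act in neurons: Fmr1, elav, fne, Rbp9, bru1, bru2, bru3, orb2, pum and nos. They were picked by name as a functional group out of a table of 17807 genes. No measured value enters the rule, but earlier results of these data were known when the genes were chosen. All 10 had 1 row each in the table and all 10 passed the filter on low counts. They were followed in whole brains dissected from pupae at 24 h after puparium formation (APF), in 3 libraries of wild type (WT) and 3 of TetAXXC. TetAXXC flies carry targeted mutations in the CXXC zinc-finger domain of Tet, introduced by CRISPR/Cas9 cutting and homology-directed repair, with the DsRed marker excised afterwards. The edited line came from an injected nos-Cas9 stock, whereas the labels name the controls only as WT. Per the labels, flies were kept at 25 °C, 30 brains were collected for each genotype, and 3 independent biological replicates were used for RNA. The labels leave unclear whether the 30 brains served each library or were shared among the 3.

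Proteins of these families bind messenger RNAs and set how they are spliced, where they end, how long they last and how much protein they yield. Fmr1 encodes FMRP, the fly counterpart of the human fragile X protein, which represses the translation of neuronal messages and shapes synapses and axon branches. The ELAV proteins (elav, fne and Rbp9) mark neurons and direct neuron-specific splicing and 3′ end choice. Pumilio and Nanos (pum and nos) repress translation together, and Orb2 is a cytoplasmic polyadenylation element binding (CPEB) protein required for long-term memory in adult flies. Several of these genes also act outside the nervous system. Rbp9, bru1, pum and nos act in the female germ line, bru1 directs splicing in flight muscle, and orb2 is needed for sperm formation.

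Library totals lay between 17861742 and 19521285 counts. Levels are read counts scaled to library size (CPM) with trimmed-mean factors between 0.986 and 1.01. The edited gene, Tet, averaged 790 ± 95.7 CPM in WT against 865 ± 72.1 CPM in TetAXXC (SD, n = 3 per genotype), and counts per gene do not resolve the edited domain. The tissue label was checked against markers. All 12 neuronal markers were detected, with summed levels of 4869 to 5862 CPM in WT and 4883 to 5555 CPM in TetAXXC, and none passed the test for genotype. Of 9 glial markers 5 passed it, all lower in TetAXXC, as did 3 of 6 tested eye and retina markers and 2 of 7 fat body markers. Of 6 tested neuroblast markers 1 passed, wor, which was higher, and 0 of 5 hemocyte markers did. The TetAXXC libraries stood apart in testis genes. The 32 matched testis markers summed to 217, 102 and 124 CPM in WT replicates 1, 2 and 3 and to 1914, 667 and 853 CPM in TetAXXC replicates 1, 2 and 3. In bulk tissue fewer cells of a type and less RNA per cell cannot be told apart.

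Of the 10 genes, 1 differed between the genotypes: bru1 was higher in TetAXXC (edgeR quasi-likelihood test, Benjamini-Hochberg adjusted p under 0.05 over 11198 genes). Over all genes tested, 15.2% passed the same threshold, and 12.1% passed it in the higher direction. A mean level of 4 log2 CPM or more was reached by 6320 genes and by 9 of the 10 (all but nos), and 7.61% of the former passed. The CPM ranges of the genotypes did not overlap for 2 of the 10, bru1 and bru2, against 32.7% of all genes tested. The 1 call is 10% of the 10 genes, under the background of all genes tested, and 11.1% of the 9 at the higher level, over the background there. A single call does not separate these shares. Their median log2 fold change (TetAXXC minus WT, as for all fold changes below) was 0.09, against 0.0041 over all genes tested. Of the 10 values 8 were positive, against 5720 of 11198 over all genes tested. Among the 8, those of Fmr1, fne, bru3 and pum turned negative in some fits with a library left out. No other of the 10 had an unadjusted p under 0.05.

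**Figure D1:**
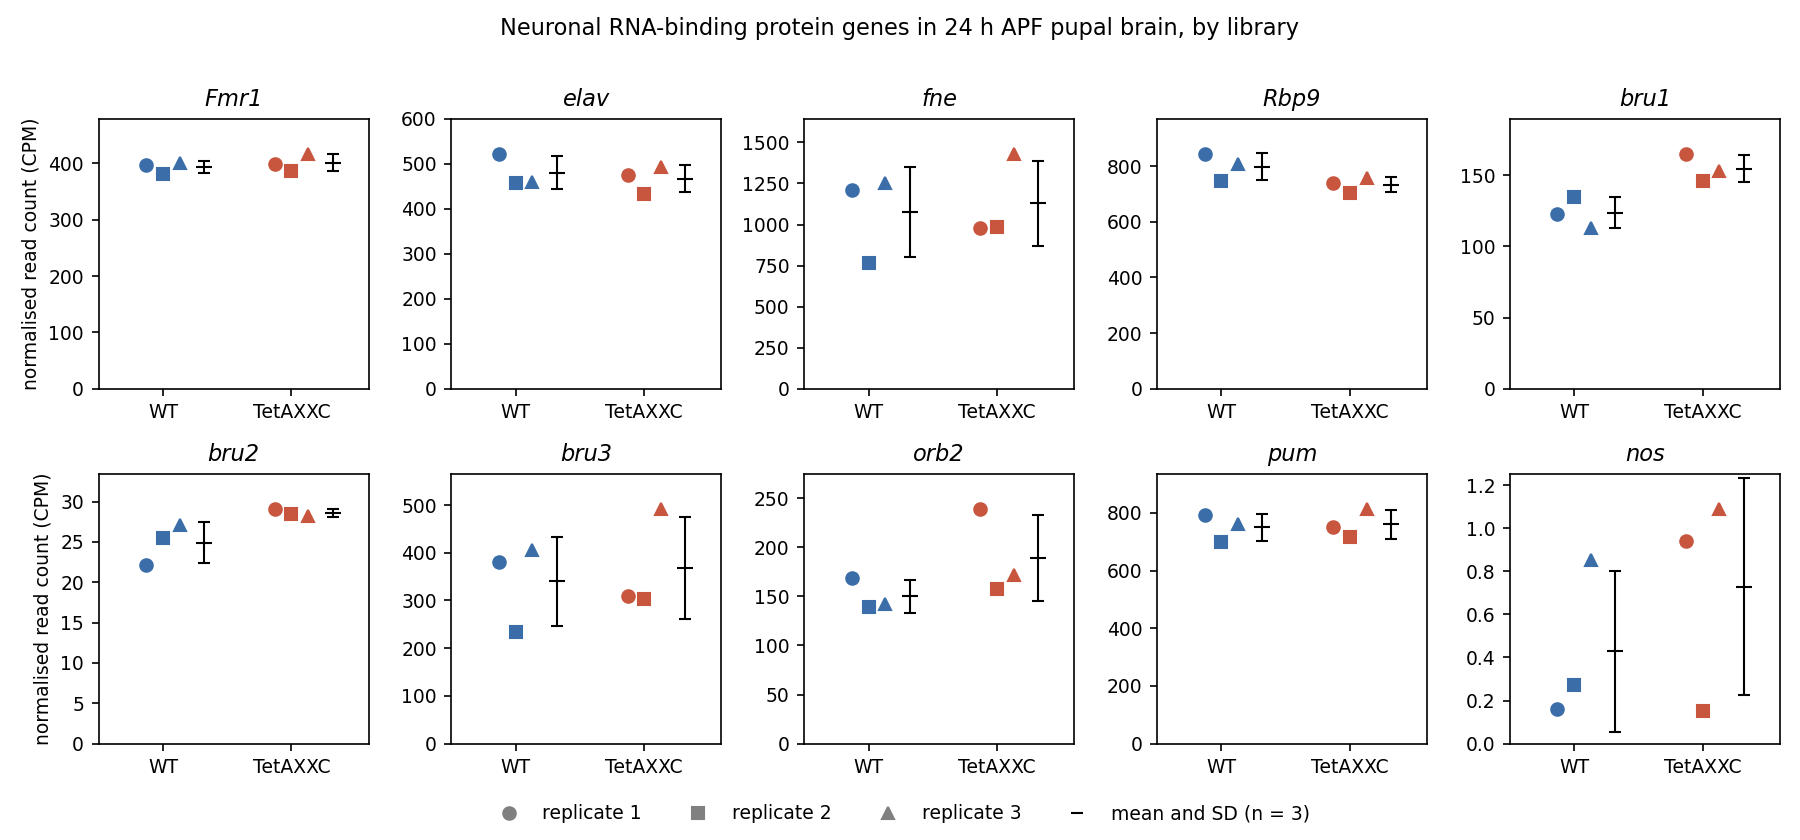
Normalised read counts (CPM, y axis from 0) of the 10 genes in the 3 WT (blue) and 3 TetAXXC (red) libraries, with the mean and SD beside them. The genotypes are separate for bru1 and bru2, fne and bru3 spread widely within both genotypes, and nos lies at or under 1.09 CPM throughout.

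To compare levels between genes, CPM was divided by the merged exon length. On this per-kilobase scale fne and Rbp9 were highest in WT, at 113 ± 28.6 and 99.1 ± 6.12 CPM per kb (SD, n = 3), and their library ranges overlapped. Fmr1 followed at 80.3 ± 2.01, pum at 63.6 ± 4.0 and elav at 44.8 ± 3.43 CPM per kb over all exons, each with a range apart from that of the next. The genes bru3, orb2 and bru1 lay lower, at 26.5 ± 7.30, 16.8 ± 1.86 and 15.9 ± 1.38 CPM per kb. Neighbours among these 3 overlapped in range. The level of bru2 was 4.09 ± 0.426 and that of nos 0.182 ± 0.158 CPM per kb. The order was the same in TetAXXC, where the ranges of fne and Rbp9 did not overlap. Over all exons the per-length levels of elav and orb2 are understated where reads in shared exon were not counted. All 2994 bases of the non-coding gene lncRNA:enrr lie inside elav exons on the same strand, lncRNA:enrr had 0 counts in all 6 libraries, and over the 7.72 kb of elav exon outside it the WT level was 62.1 ± 4.77 CPM per kb. On that scale elav (59.3 to 67.6) overlapped with pum (59.2 to 67.1), so their order was not resolved. For orb2, which shares exon with CG43783, the WT level over the unshared 7.59 kb was 19.8 ± 2.18 CPM per kb. Its lowest WT library (18.3) then lay above the highest of bru1 (17.3), whereas in TetAXXC both genes still overlapped.

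Fmr1 (FBgn0028734, chromosome 3R, 10101420 to 10110121, minus strand, build BDGP6) was the steadiest of the 10 in WT. It stood at 398, 382 and 401 CPM in WT replicates 1, 2 and 3 and at 399, 387 and 417 CPM in TetAXXC replicates 1, 2 and 3. The genotypes overlapped, and replicate 2 was lowest in each. The coefficient of variation (SD over mean) of Fmr1 was 2.51% in WT and 3.69% in TetAXXC, where the medians over the 6320 well-expressed genes were 4.50% and 5.04%. Its log2 fold change was 0.03 with a 95% interval from -0.07 to 0.13 (edgeR adjusted p = 0.779). The interval is for the counts of all Fmr1 transcripts together, at 95% confidence, and FMRP protein was not measured. The annotation gives Fmr1 11 coding transcripts with 3′ UTRs of 108 to 1812 bases, and counts per gene do not separate them.

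Proteins that work with FMRP and messages that it is known to bind were examined beside it. None of the 16 tested partner genes and none of the 6 tested target genes passed the threshold. Of all genes tested 15.2% did, and of those at a mean of 4 log2 CPM or more 7.61% did. Median log2 fold changes of partners and targets were 0.01 and 0.00. Nearest to the threshold among the partners was Sra-1, the fly CYFIP, which links FMRP to Rac and actin. Its level was 417, 430 and 416 CPM in WT and 383, 380 and 391 CPM in TetAXXC. These ranges did not overlap, but edgeR placed the log2 fold change of -0.13 (standard error 0.04) just outside the threshold (adjusted p = 0.052). With the replicate number as a block, the adjusted p of Sra-1 was 0.0384 at the same fold change. Capr, which encodes the FMRP partner Caprin, was at 463 ± 33.0 and 492 ± 26.6 CPM (adjusted p = 0.478). The microtubule-associated gene futsch, a message that FMRP represses, averaged 853 ± 76.8 CPM in WT against 747 ± 75.8 CPM in TetAXXC (SD, n = 3 per genotype). Its ranges overlapped (edgeR adjusted p = 0.263; 0.00725 with the replicate block). The messages of profilin and Rac, chic and Rac1, had adjusted p of 0.965 and 0.178.

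The 3 genes of the compared lists whose profile over the 6 libraries lay nearest to that of Fmr1 were smg, stau and tral. Their mean absolute differences from its centred log2 CPM were 0.0085, 0.013 and 0.018. The gene smg encodes the translational repressor Smaug, stau the RNA transport protein Staufen, and tral the RNA-granule protein Trailer hitch. Each was itself flat, as smg shows with 90.4 to 94.7 CPM in WT and 90.4 to 97.8 CPM in TetAXXC.

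Of the ELAV family, elav is the pan-neuronal member (FBgn0260400, chromosome X, 509235 to 523226, minus strand). It stood at 522, 458 and 459 CPM in WT and at 475, 434 and 492 CPM in TetAXXC. The ranges overlapped, and the log2 fold change was -0.04 with a 95% interval from -0.20 to 0.13 (edgeR adjusted p = 0.813). Rbp9, expressed in neurons and in the ovary (FBgn0010263, chromosome 2L, 2954762 to 2968434, plus strand), stood at 844, 746 and 806 CPM in WT and at 740, 704 and 757 CPM in TetAXXC. Here the lowest WT library lay below the highest TetAXXC library, and no call was made. The log2 fold change of Rbp9 was -0.12 with a 95% interval from -0.26 to 0.01 and an edgeR adjusted p of 0.242, or 0.0628 with the replicate block.

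The third paralog, fne (found in neurons, FBgn0086675, chromosome X, 12917477 to 12950417, plus strand), was the most variable of the family. Its level was 1213, 764 and 1256 CPM in WT replicates 1, 2 and 3. In TetAXXC it was 976, 983 and 1430 CPM. WT replicate 2 was the lowest and TetAXXC replicate 3 the highest of all 6 libraries, and the genotypes overlapped over most of their range. The coefficient of variation of fne was 25.3% in WT and 23.0% in TetAXXC. A fold change of 0.07 was estimated on the log2 scale, with a 95% interval from -0.46 to 0.59 (edgeR adjusted p = 0.907), so that only a large genotype difference of fne was detectable. Within the family, fne made up 37.2% to 48.0% of the summed per-kilobase level in WT and 43.0% to 51.8% in TetAXXC. The share of elav was 15.6% to 19.8% and 15.8% to 18.6%, and the share of Rbp9 was 36.4% to 42.9% and 32.4% to 38.5%. Over unshared exon the share of elav was larger, at 20.4% to 25.5% in WT and 20.7% to 24.0% in TetAXXC. That of fne was then 34.6% to 45.3% and 40.1% to 48.8%, and that of Rbp9 34.3% to 39.9% and 30.5% to 35.9%.

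The relatives ssx and Sxl, both genes for RNA-binding proteins of the Sex-lethal type, showed no call. Their levels were 223 ± 7.21 and 389 ± 57.4 CPM in WT and 231 ± 12.8 and 413 ± 27.1 CPM in TetAXXC, with edgeR adjusted p of 0.631 and 0.706. None of the 6 tested genes in the list of ELAV relatives and known messages passed the threshold. The share was 15.2% of all genes tested and 7.61% of those at a mean of 4 log2 CPM or more. The median log2 fold change of these 6 was 0.03. Among those messages are Nrg, which encodes the adhesion protein Neuroglian, and ewg, a neuronal transcription factor gene. Both are known for splicing under ELAV control, which counts per gene do not report.

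Bruno-family proteins (CELF proteins in vertebrates) control splicing and translation. The genes bru1 (FBgn0000114, chromosome 2L, 12175004 to 12313438) and bru2 (FBgn0262475, chromosome 2L, 12344219 to 12397528) are neighbours on the plus strand, separated by 30.8 kb. Of the 3 genes lying wholly in that gap, 0 had enough counts to be tested. The level of bru1 was 123, 135 and 113 CPM in WT replicates 1, 2 and 3 and 165, 146 and 153 CPM in TetAXXC replicates 1, 2 and 3. Every TetAXXC library was above every WT library. The mean rose by 25.0%, from 124 ± 10.8 to 154 ± 9.79 CPM (SD, n = 3 per genotype). On the log2 scale this was 0.32 (standard error 0.07, 95% interval 0.15 to 0.49, edgeR adjusted p = 0.0296, or 0.00687 when replicate numbers were blocked).

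The call for bru1 depended on the libraries used. It held when TetAXXC replicate 2 was dropped (edgeR adjusted p = 0.0334). When WT replicate 1, 2 or 3 was dropped the adjusted p was 0.0857, 0.0816 and 0.106, and for TetAXXC replicates 1 and 3 it was 0.0736 and 0.0728. In these 6 fits the log2 fold change lay between 0.23 and 0.39. Under limma-voom it was 0.32 with an adjusted p of 0.0930. Other places where bru1 acts were read from markers. The flight muscle gene Act88F had 266, 882 and 255 counts in WT and 211, 483 and 237 counts in TetAXXC, and the 12 muscle markers summed to 558 to 750 CPM and 561 to 602 CPM, with 0 of 12 past the threshold. The 10 early germ cell markers summed to 57.8 to 62.2 CPM in WT and 48.0 to 62.7 CPM in TetAXXC, with 1 of the 7 tested passing the threshold, higher in TetAXXC. The log2 fold changes of these 7 ran from -0.45 to 1.99, with a median of 0.31, which the sum does not show. The testis markers were higher in all TetAXXC libraries, as bru1 was. Within TetAXXC both were highest in replicate 1 and lowest in replicate 2. Within WT bru1 was highest in replicate 2, at 135 CPM, where the testis sum was lowest, at 102 CPM. The part of any of these tissues in the bru1 result was not tested.

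The level of bru2 was 22.1, 25.5 and 27.1 CPM in WT and 29.1, 28.4 and 28.2 CPM in TetAXXC. The TetAXXC libraries lay closely together above the WT libraries, but the difference of 14.8% did not pass the test. The log2 fold change was 0.20 with a 95% interval from -0.01 to 0.40 and an edgeR adjusted p of 0.201. The largest gene of the family, bru3 (FBgn0264001, chromosome 3L, 13521907 to 13803400, minus strand), stood at 381, 233 and 406 CPM in WT and at 309, 304 and 492 CPM in TetAXXC. The genotypes overlapped and the spread within each was wide, with coefficients of variation of 27.5% and 29.1%. Its log2 fold change was 0.11 with a 95% interval from -0.49 to 0.72 (edgeR adjusted p = 0.855). By per-kilobase level bru3 made up 45.8% to 62.5% of the family in WT and 48.1% to 61.3% in TetAXXC.

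**Figure D2:**
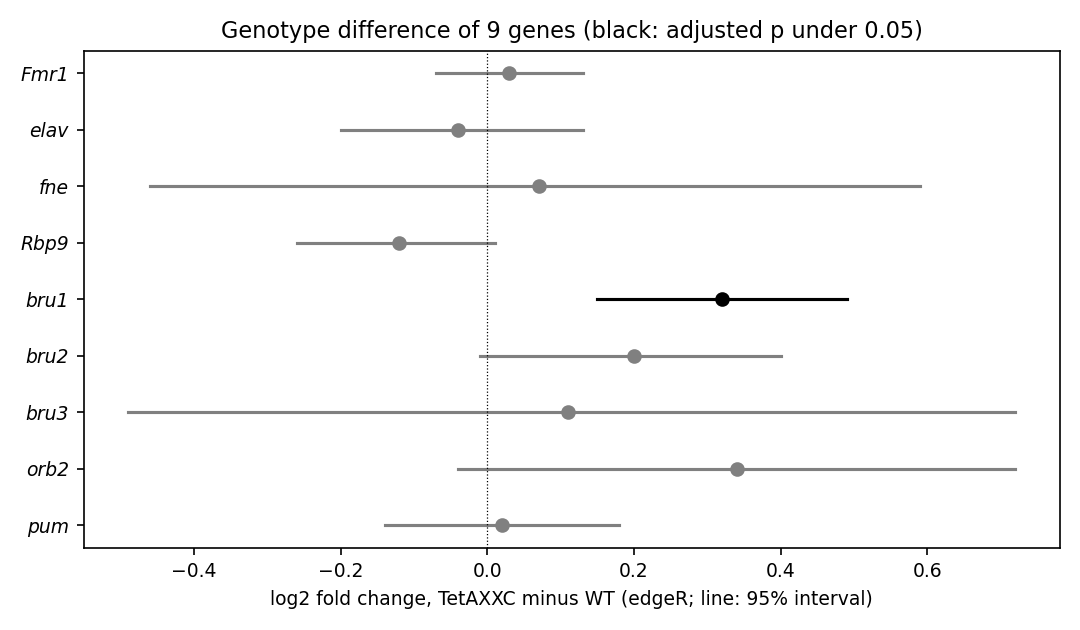
Log2 fold changes (x axis, TetAXXC minus WT) of 9 of the genes with 95% intervals derived from the edgeR test. The interval of bru1, from 0.15 to 0.49, lies above 0, those of fne and bru3 are the widest, and nos is left out because its interval runs from -1.25 to 2.77.

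None of the 4 tested messages known from Bruno biology passed the threshold, where 15.2% of all genes tested did. The median log2 fold change of these 4 was -0.09. The giant muscle protein gene sls was at 288 ± 18.4 and 261 ± 30.7 CPM and the muscle gene Zasp66 at 2.24 ± 0.310 and 3.41 ± 0.284 CPM, with edgeR adjusted p of 0.395 and 0.161. The oocyte message osk had 4 counts in TetAXXC replicate 1 and 0 in the other 5 libraries.

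The profiles of fne and bru3 over the libraries were alike, a likeness noticed after their values were seen. Among 80 genes of the compared lists, those nearest to fne in centred log2 CPM were Rbp6 at a mean absolute difference of 0.039, shep at 0.041 and bru3 at 0.044. Rbp6 encodes a Musashi-related protein and shep a neuronal RNA-binding protein that regulates neuronal remodelling. In all 4 genes WT replicate 2 was lowest and TetAXXC replicate 3 highest. This order was not particular to them, as Fmr1, pum and Tet had the same lowest and highest libraries with a smaller spread. The genes elav, Rbp9, bru1, bru2, orb2 and nos did not. The transcription factor gene pros, listed as a neuroblast marker but known also from young neurons and glia, followed the same course, at 1404, 860 and 1471 CPM in WT and 1152, 1164 and 1752 CPM in TetAXXC. Among the other neuroblast markers, mira, insc and wor also had their lowest level in WT replicate 2 and their highest in TetAXXC replicate 3. For insc the levels were 5.50, 4.52 and 5.57 CPM in WT and 5.44, 5.66 and 6.92 CPM in TetAXXC. The markers dpn and ase had another order, with dpn highest in TetAXXC replicate 1 and ase lowest in WT replicate 1. A part of cell composition, of staging or of library preparation in this shared profile was not tested.

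**Figure D3:**
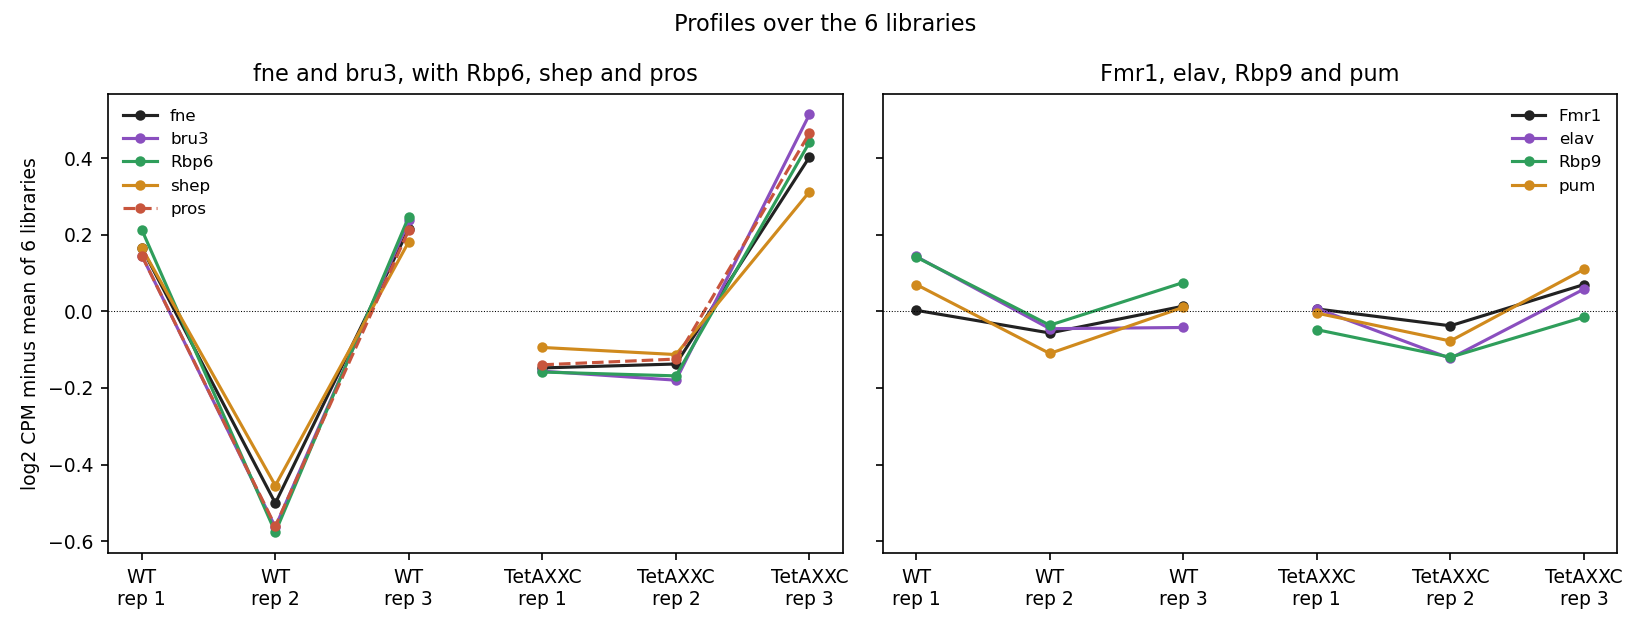
Log2 CPM minus the mean of the 6 libraries (y axis) for each library (x axis). On the left fne, bru3, Rbp6, shep and pros share a low point in WT replicate 2 and a high point in TetAXXC replicate 3. On the right Fmr1, elav, Rbp9 and pum vary far less, though Fmr1 and pum have the same lowest and highest libraries.

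Orb2 is the CPEB protein that forms stable oligomers at synapses. Its gene (FBgn0264307, minus strand of chromosome 3L, 8937100 to 8954463) reached 169, 139 and 142 CPM in WT replicates 1, 2 and 3 and 239, 157 and 172 CPM in TetAXXC replicates 1, 2 and 3. Replicate 1 was the highest of each genotype, and WT replicate 1 lay above TetAXXC replicate 2. The means were 150 ± 16.6 and 189 ± 43.9 CPM (SD, n = 3 per genotype), or 0.34 on the log2 scale (95% interval -0.04 to 0.72, edgeR adjusted p = 0.249). With the replicate block orb2 passed the threshold, at 0.32 with an adjusted p of 0.00485, and 2 of the 10 genes then passed, where 21.1% of all genes tested did. The size depended on 1 library. Without TetAXXC replicate 1 the log2 fold change of orb2 was 0.13, with an adjusted p of 0.496. With both libraries numbered 1 left out it was 0.23, with an adjusted p of 0.0884. The testis markers were likewise highest in replicate 1 of each genotype, and their part in the orb2 values was not tested. The neighbouring gene CG43783 shares 1319 exonic bases with orb2 on the same strand. Its level was 57.2, 59.0 and 54.9 CPM in WT and 86.1, 59.4 and 68.9 CPM in TetAXXC, so TetAXXC replicate 1 was the highest for both genes.

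Of the 4 tested partners, relatives and messages of Orb2, 1 passed the threshold. The share was 15.2% of all genes tested and 7.61% of those at a mean of 4 log2 CPM or more. Tob, whose protein binds Orb2 and promotes its oligomer formation, rose from 107, 89 and 103 counts in WT to 408, 198 and 233 counts in TetAXXC. The change was 1.43 on the log2 scale (standard error 0.29, edgeR adjusted p = 0.0211, limma-voom adjusted p = 0.114). The adjusted p of Tob was 0.0532, 0.0929 and 0.0760 without WT replicate 1, 2 and 3, and at most 0.0464 without any TetAXXC library. The paralog orb, the germline CPEB gene, was at 76.9, 70.0 and 68.4 CPM in WT and 105, 79.6 and 89.5 CPM in TetAXXC. The ranges of orb did not overlap, but the adjusted p was 0.066 at a log2 fold change of 0.35, or 0.00287 with the replicate block. As with orb2, TetAXXC replicate 1 was the highest library for both Tob and orb, as it was for the testis markers. The known Orb2 messages CaMKII and aPKC were at -0.06 and -0.10 on the log2 scale, neither past the threshold (edgeR adjusted p = 0.526 and 0.151).

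**Figure D4:**
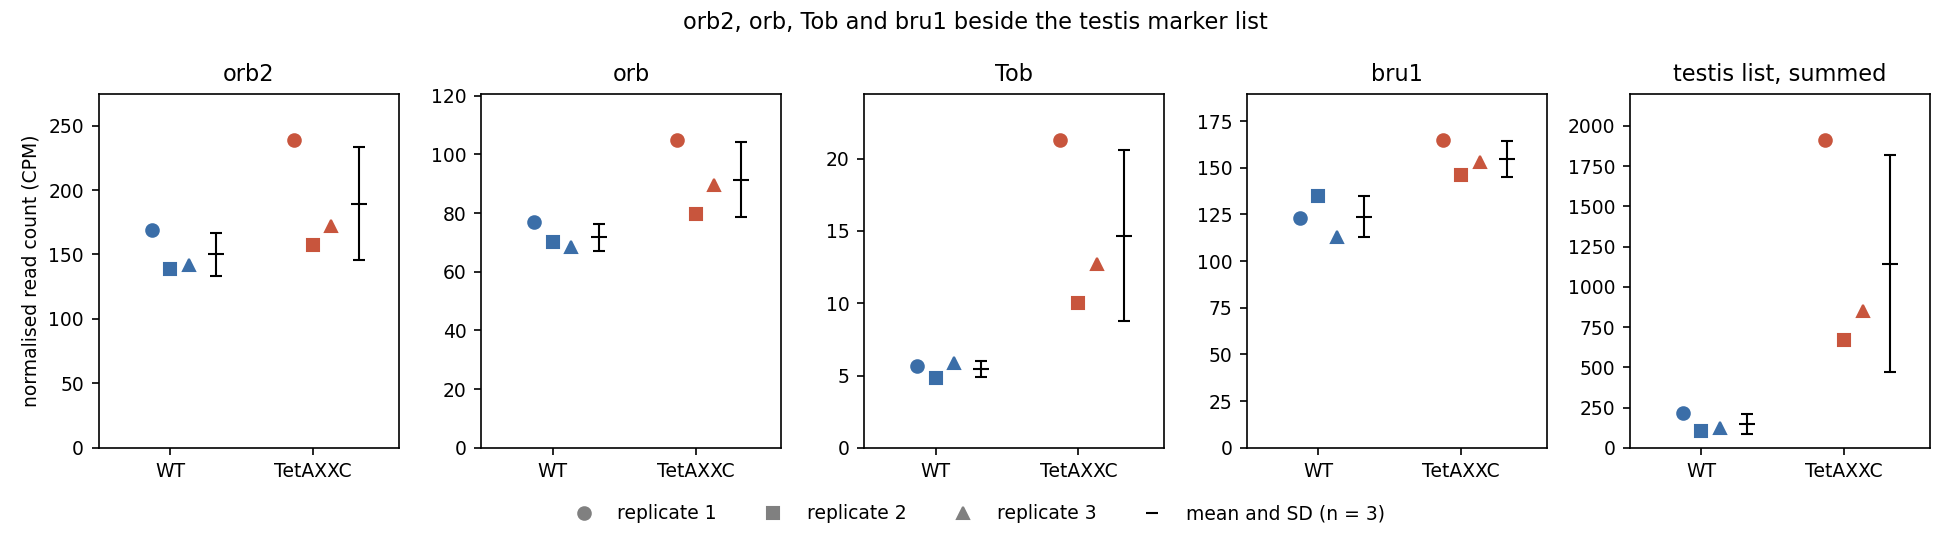
Normalised read counts (CPM, y axis from 0) of orb2, orb, Tob and bru1 beside the summed level of the testis marker list, for 3 WT (blue) and 3 TetAXXC (red) libraries, with the mean and SD. TetAXXC replicate 1 is the highest library in all 5 panels, at 239 CPM for orb2 and 1914 CPM for the testis list. Within WT, bru1 is highest in replicate 2, where the testis list is lowest.

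Pumilio, the founding member of the PUF proteins, binds messages in their 3′ UTRs and lowers neuronal excitability through the sodium channel message para. Its gene pum (FBgn0003165, chromosome 3R, 9066343 to 9237682, minus strand) stood at 792, 699 and 760 CPM in WT and at 752, 715 and 814 CPM in TetAXXC. The ranges overlapped almost wholly. The log2 fold change was 0.02 with a 95% interval from -0.14 to 0.18 (edgeR adjusted p = 0.915). Its partner nos (FBgn0002962, chromosome 3R, 19157238 to 19160202, plus strand), a germline gene also known from dendrites of sensory neurons, was near the limit of detection. It had 3, 5 and 15 counts in WT and 18, 3 and 20 counts in TetAXXC. With so few counts the ranges overlapped, and a genotype difference of nos was not detectable at this depth (95% interval of the log2 fold change from -1.25 to 2.77, edgeR adjusted p = 0.663). Exons of nos share 373 bases with 2 genes on the opposite strand, CG11779 and Nsun5. The edited line descends from a stock with a nos-Cas9 transgene, the labels leave unclear whether later crosses removed it, and whether any nos counts came from such a transgene was not tested.

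Of the 8 tested partners and messages of Pumilio and Nanos, 1 passed the threshold. The share was 15.2% of all genes tested and 7.61% of those at a mean of 4 log2 CPM or more. The cell death gene hid, known to be repressed by Nanos and Pumilio in germ cells, stood at 154, 150 and 138 CPM in WT and at 125, 128 and 115 CPM in TetAXXC. All TetAXXC libraries were below all WT libraries, and the mean fell from 147 ± 8.12 to 123 ± 6.72 CPM (SD, n = 3 per genotype; log2 fold change -0.26, edgeR adjusted p = 0.0266). The call for hid held without TetAXXC replicate 2 (0.0201). It was lost without WT replicate 1, 2 or 3 (adjusted p of 0.0758, 0.102 and 0.0683) and without TetAXXC replicate 1 or 3 (0.0534 and 0.0889). It was lost as well under limma-voom (adjusted p = 0.0928) and in the edgeR fit of well-expressed genes only (adjusted p = 0.0618). With the replicate block 2 of the 8 passed, where 21.1% of all genes tested did. They were hid and, in the higher direction, the cyclin gene CycB (log2 fold change 0.33, adjusted p = 0.0185). The third member of the repressor complex, brat, was at 1509 ± 174 and 1577 ± 87.3 CPM, and para was at 83.5 ± 26.7 and 94.8 ± 29.9 CPM, with adjusted p of 0.742 and 0.778. The profile of para was low in WT replicate 2, at 52.8 CPM, and high in TetAXXC replicate 3, at 129 CPM, as those of fne and bru3 were.

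**Figure D5:**
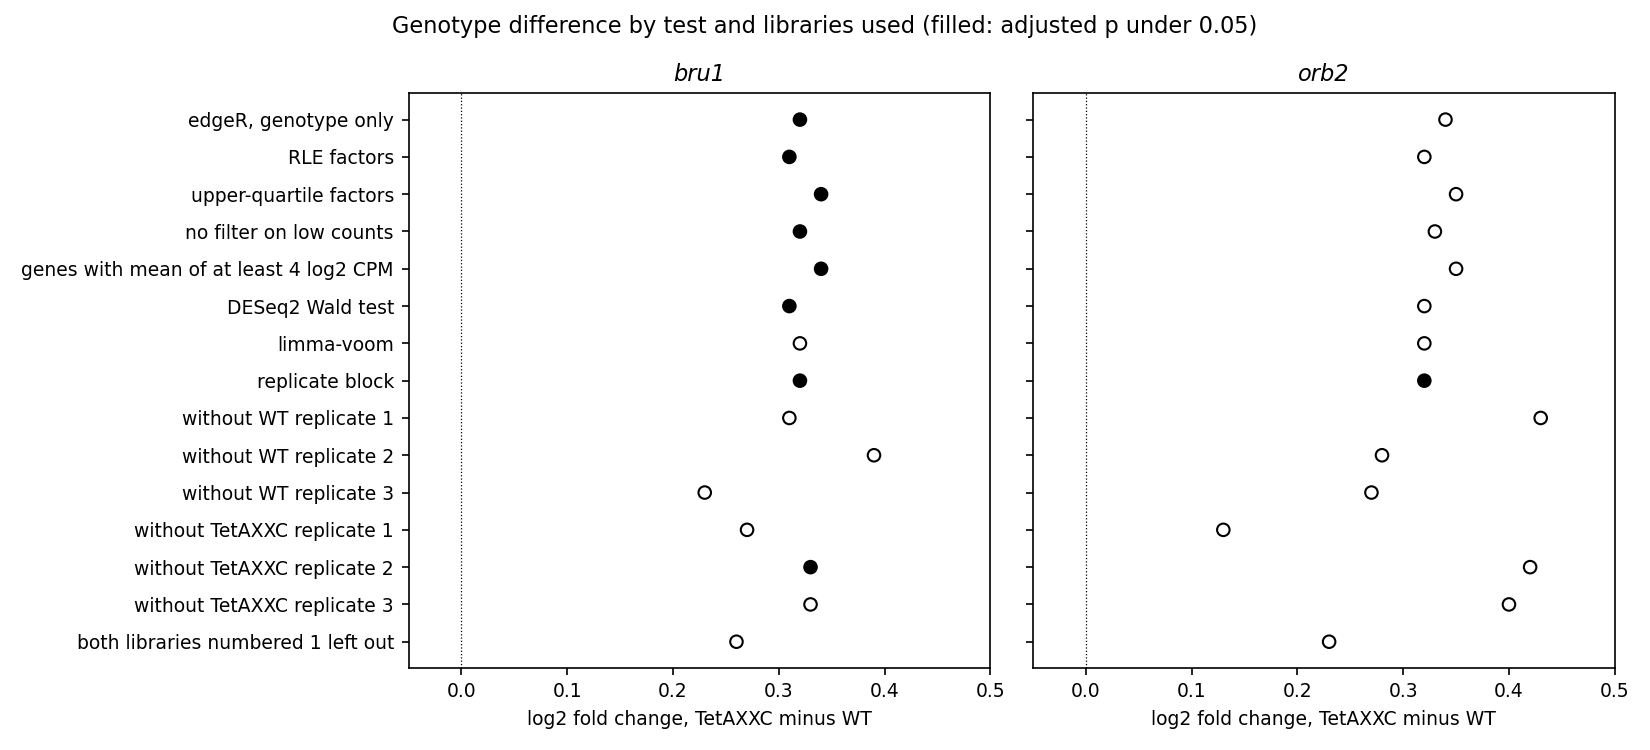
Log2 fold changes (x axis, TetAXXC minus WT) of bru1 and orb2 for each test and each set of libraries (y axis), filled where the adjusted p is under 0.05. Both genes stay above 0 in every setting shown, bru1 passes in 8 of the 15 and orb2 in 1, and without TetAXXC replicate 1 orb2 drops to 0.13.

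Further RNA-binding protein genes of the brain gave a wider view. Of 33 tested, 0 passed the threshold in edgeR. The share was 15.2% of all genes tested and 7.61% of those at a mean of 4 log2 CPM or more. A positive log2 fold change was found for 24 of the 33, against 5720 of 11198 over all genes tested, and the median was 0.03. Those nearest to the threshold were bol, the Boule gene of the male germ line, with an adjusted p of 0.057, and ps (pasilla, a Nova-type splicing factor gene) with 0.0931. For bol the levels were 59.4, 32.8 and 57.5 CPM in WT and 120, 68.6 and 104 CPM in TetAXXC, and bol is itself in the testis list. With the replicate block 4 of the 33 passed, all higher in TetAXXC, against 21.1% of all genes tested. They were bol (adjusted p = 8.91e-06), ps (0.000385), sm (0.00447), which encodes the hnRNP L-type protein Smooth, and Imp (0.0409). The temporal regulators Imp and Syp, which oppose each other in neural stem cells and their progeny, were at 45.2 ± 9.71 and 1168 ± 256 CPM in WT and at 57.1 ± 16.5 and 1217 ± 174 CPM in TetAXXC. Without the block their edgeR adjusted p were 0.441 and 0.895. The Musashi gene msi was at 325 ± 18.6 and 326 ± 11 CPM, with an adjusted p of 0.974.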

How the data were processed

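Strand-specific, poly(A)-selected RNA sequencing was done on pupal brains, per the labels' protocols. The authors deposited unnormalised read counts for each gene and library in 1 table, which also lists exons and their merged length. Trimmomatic 0.39, HISAT2, SAMtools, featureCounts and DESeq2, and builds BDGP6 and dm6, are named in the submitters' processing notes. Strand setting and treatment of multiply mapped reads are not given in the sources used here. All 10 genes had the same coordinates in the BDGP6.54 annotation. No sequences were used here.

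Genotype was tested across all genes with edgeR 4.0.16 (filterByExpr, minimum count 10 and total 15, TMM, glmQLFTest, two-sided, Benjamini-Hochberg threshold 0.05, R 4.3.3), a procedure tested on simulated data. Simulated libraries were independent of each other, and the changes put in were all larger than that of bru1. DESeq2 1.42.0, limma 3.58.1 (voom), other factors, other filters, a replicate block and left-out libraries were alternatives. Same-numbered libraries deviated together across genes (r = 0.652, 0.419 and 0.343 for numbers 1, 2 and 3). WT replicate 3 and TetAXXC replicate 2 did so too (r = 0.23). The block treats equal numbers as pairs, which these correlations alone do not establish. Replicate pairs differed beyond sampling noise (chi-square per degree of freedom at least 7.27).

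The 10 genes and the lists were chosen with earlier results of these data known. Named genes were the 10, 12 fixed companions, list genes past the threshold, and the 3 nearest to Fmr1 in profile. Others named were chosen after their values were seen.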

Additional observations from a re-analysis of the deposited data

How the results depend on the processing

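Fold changes are on the log2 scale. With a library left out, 0 to 1 of the 10 genes passed the threshold and 54 to 2095 of all genes (18 to 1653 higher, 36 to 442 lower), and 0 to 6 companion genes; the counts over all genes were lowest when WT replicate 2 and highest when TetAXXC replicate 2 was dropped. The ranges were -0.0010 to 0.031 for Fmr1, -0.099 to 0.024 for elav, -0.14 to 0.16 for fne, -0.17 to -0.083 for Rbp9, 0.23 to 0.39 for bru1, 0.12 to 0.24 for bru2, -0.15 to 0.23 for bru3, 0.13 to 0.43 for orb2, -0.032 to 0.057 for pum and 0.35 to 1.69 for nos. Fmr1, elav, fne, bru3 and pum thus changed direction.

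By limma-voom 0 of the 10 genes, 0 companion genes and 130 of all genes passed (56 higher, 74 lower), and bru1 was at 0.32 (adjusted p = 0.0930). Blocking by replicate, 2 of the 10 genes and 10 companion genes passed, 595 of all genes were lower, orb2 passed at 0.32, and the replicate block changed no other call among the 10. DESeq2 gave 9 companion genes and 725 lower genes. In a fit of the 6320 well-expressed genes only, 268 passed (146 higher, 122 lower) and 0 companion genes did. With both libraries numbered 1 left out, chosen after seeing the data, 0 of the 10 genes and 1 companion gene passed, 170 of all genes were lower, bru1 was at 0.26 with an adjusted p of 0.153, and elav reversed to 0.015. In all other settings with all libraries the 10 genes kept direction and call.

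With a library left out, genes of the naming rule beyond the 10 that changed direction were ssx (-0.011 to 0.093), Sxl (-0.034 to 0.14), brat (-0.018 to 0.15), para (-0.10 to 0.34), Syp (-0.12 to 0.16), msi (-0.040 to 0.049), smg (-0.0015 to 0.024), stau (-0.018 to 0.034) and tral (-0.0020 to 0.048). Of the other genes named, Rbp6, shep, pros, dpn, Nrg, ewg, chic, Nsun5, repo and Act88F changed direction too. With all libraries msi reversed at -0.0065 with RLE factors, -0.00016 without a filter and -0.0066 under DESeq2. The cause of these differences was not tested. Low counts limit nos.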
